A study of Mus musculus with 6 samples.

Results

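Interferon-stimulated genes are the transcripts a cell switches on when interferons bind its surface receptors, and 39 of the 50 chosen by name for this report had a row among the 11175 genes of the deposited expression table. The members were chosen by symbol, with no measured value in the rule but with earlier results of these data known. The guanylate-binding and immunity-related GTPases that interferon gamma induces were set apart (15 of 15 listed). All other members are called type I targets here (24 of 35 listed), though some, such as Irf1, are induced by both interferons. The type I targets Irf7, Dhx58, Ifit1, Ifit3, Oasl2, Oas1a, Mx1, Rtp4, Xaf1, Usp18 and Parp12 had no row and were not analysed here. The 6 libraries came from spleen CD8+ T cells of wild-type (WT) mice activated for 48 h with antibodies to CD3 and CD28. In 3 libraries the culture also held DOPAC (3,4-dihydroxyphenylacetic acid), a catechol made when dopamine is degraded, and 3 Control libraries had no such addition. The labels give neither the dose of DOPAC nor the age, sex or strain of the mice, and do not say whether the replicates are separate animals or cultures. The p-values therefore reflect library-to-library spread, part of which may be technical. Values are FPKM, that is fragments scaled by transcript length and library total. This scaling did not make all libraries alike, since Control replicate 1 deviated from the others with transcript length, as described below.

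Type I interferons act through a receptor built from Ifnar1 and Ifnar2 and assemble a complex with STAT2 and IRF9 that binds interferon-stimulated response elements (ISRE). Interferon gamma, a main product of activated CD8 T cells, acts through Ifngr1 and Ifngr2 and induces genes with gamma-activated sites (GAS). The products of the induced genes detect foreign nucleic acid, block virus replication, tag proteins with ubiquitin-like modifiers and, in the case of the GTPases, attack the membranes around intracellular microbes.

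Of the GTPase members with a promoter sequence, 6 of 10 carried both kinds of element, and the windows below are shown as examples of the motifs. An ISRE was searched as 2 copies of GAAA with any 2 bases between them, or the reverse complement with TTTC, and a GAS as TTC and GAA with any 3 bases between them, which reads the same on both strands, from 250 bases before to 50 after the start of each gene in RefSeq (build GRCm38.p6, the build also called mm10). Of the GTPase members 10 had such a sequence, and 9 of them held an ISRE and 6 a GAS. Of the type I targets 20 had one, with an ISRE in 6 and a GAS in 7. Among all 27025 genes with a sequence 3.99% held an ISRE and 9.55% a GAS. The motifs can overlap, and a match is a string of letters and not a measured binding site. No sequence was matched for Gbp4, Gbp6, Gbp8, Gbp9, Ifi27l2a, Iigp1, Parp14, Parp9 and Zbp1. Each line reads 5′ to 3′ on the strand of the gene, ends before its start, and has every motif in capitals.
Igtp, chr11:58199496-58199555, plus strand: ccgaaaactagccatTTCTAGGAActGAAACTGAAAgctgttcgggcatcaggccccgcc
Irgm2, chr11:58214888-58214947, plus strand: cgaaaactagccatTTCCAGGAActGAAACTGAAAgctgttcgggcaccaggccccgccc
Tgtp1, chr11:48992289-48992348, minus strand: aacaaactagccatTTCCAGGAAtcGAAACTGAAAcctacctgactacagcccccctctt
Tgtp2, chr11:49064248-49064307, minus strand: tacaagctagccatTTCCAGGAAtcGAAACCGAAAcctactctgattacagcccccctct
Gbp7, chr3:142530258-142530317, plus strand: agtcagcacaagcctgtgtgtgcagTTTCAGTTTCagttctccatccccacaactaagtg
Isg15, chr4:156200850-156200909, minus strand: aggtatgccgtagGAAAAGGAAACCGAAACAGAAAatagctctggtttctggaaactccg
Trim30a, chr7:104465195-104465254, minus strand: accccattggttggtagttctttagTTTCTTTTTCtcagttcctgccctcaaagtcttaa
Bst2, chr8:71537562-71537621, minus strand: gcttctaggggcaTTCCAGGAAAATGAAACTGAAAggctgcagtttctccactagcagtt
Irf1, chr11:53769899-53769958, plus strand: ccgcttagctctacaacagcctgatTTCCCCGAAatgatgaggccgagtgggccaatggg
In Igtp, Irgm2, Tgtp1 and Tgtp2 a GAS and an ISRE stood with 2 bases between them, an arrangement looked for after the sequences had been seen. It was found in 5 of the 27025 genes, or 0.0185%. These GTPases are themselves 4 of the 5, so that share is no separate background for them. Gbp7 had its ISRE nearest the start and a pair of GAS farther upstream. The type I target Isg15 had 3 overlapping ISRE and no GAS, Trim30a an ISRE and no GAS, Bst2 both, and Irf1, which both interferons induce, a GAS and no ISRE.

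The markers of the labelled cell type were present in every library, and 1 Control library stood apart. The 6 markers of CD8 T cells (Cd3e, Cd3d, Cd3g, Cd8a, Cd8b1 and Cd2) summed to between 547.5 and 646.1 FPKM in the DOPAC libraries and between 572.9 and 646.0 FPKM in the Control libraries, and Cd4 had no row. Over genes, which are not independent of one another, the log2(FPKM + 1) of Control replicate 1 had a Pearson's r of 0.899 to 0.917 with the other 5 libraries. Among those 5 the r was 0.974 to 0.992. FPKM sums lay between 292755 and 316035 in the DOPAC libraries and between 283818 and 310918 in the Control libraries, and since FPKM hold no read counts, the depth behind each value is unknown. Of 6 macrophage markers Lyz2 and Cd68 had a row and summed to 12.4, 4.45 and 4.93 FPKM in DOPAC replicates 1, 2 and 3 against 14.2, 33.8 and 25.3 FPKM in the same replicates of Control. The 3 collagen markers of fibroblasts summed to 0.330, 15.5 and 16.0 FPKM with DOPAC and to 27.9, 27.4 and 25.7 FPKM in Control. Of 5 B cell markers Cd79b alone had a row (1.47 to 2.61 FPKM with DOPAC, 1.54 to 2.49 FPKM in Control), of 3 plasmacytoid dendritic cell markers Runx2 alone (1.19 to 1.75 and 0.770 to 1.64 FPKM), and of 2 NK cell markers none. The erythroid markers Hba-a1 and Hbb-bs summed to 0.280 to 3.02 FPKM with DOPAC and to 2.72 to 10.4 FPKM in Control. In bulk RNA fewer cells of a type and less RNA per cell cannot be told apart, and the part of these cells in the values below was not tested.

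No interferon-stimulated gene passed the test between DOPAC and Control. DOPAC replicate 1 was the highest library in most members, and Control replicate 1 was the lowest in most. With limma's moderated test on log2(FPKM + 1) and Benjamini-Hochberg adjustment over the 10887 genes with a mean of at least 1 FPKM, 0 of 38 members had an adjusted p under 0.05, with a background of 0 genes higher (0%) and 0 lower (0%), and the lowest adjusted p of any gene or member was 0.801. Isg20, an exonuclease of RNA, averaged 0.963 FPKM over the 6 libraries and was left out of the test. The log2 fold change, DOPAC minus Control, was positive in 33 of the 38 members, with a median of 0.28, against 62.1% of all genes tested, whose median was 0.07. It was positive in 18 of 23 type I targets (median 0.23) and in 15 of 15 GTPases (median 0.28). At an unadjusted p under 0.05 there was 1 higher member (2.73% of all genes tested) and 0 lower members (1.46%). The DOPAC and Control libraries did not overlap in 4 members with higher values in DOPAC (12.4% of all genes tested) and in 1 with lower values (4.8%), shares of 10.5% and 2.63% of the members.

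**Figure D1:**
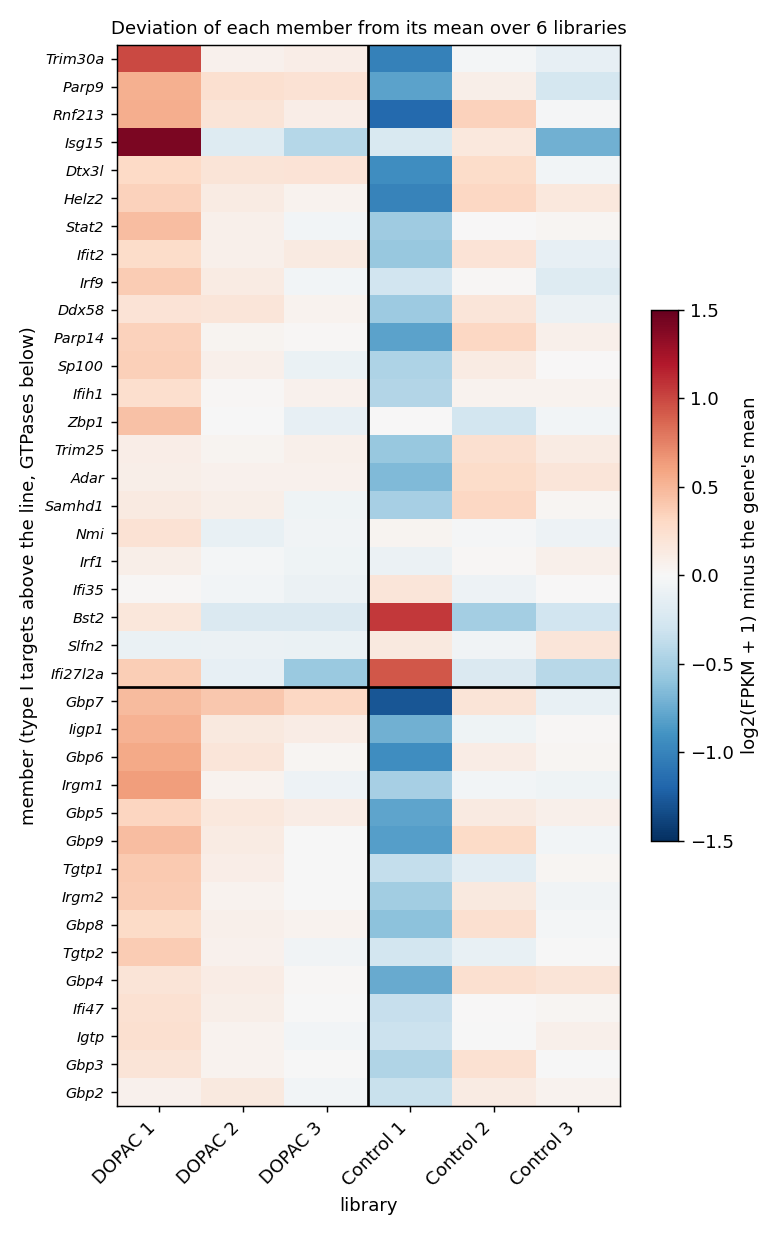
Colour gives each of the 38 tested members' log2(FPKM + 1) in a library minus its mean over the 6 libraries, with DOPAC libraries on the left, Control libraries on the right, type I targets above the horizontal line and GTPases below it. DOPAC replicate 1 is the highest library in 28 members and Control replicate 1 the lowest in 31.

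DOPAC replicate 1 was above both other DOPAC libraries in 36 of 38 members, against 38.9% of all genes tested. The exceptions were Gbp2 and Slfn2. Its log2(FPKM + 1) lay 0.28 above the mean of DOPAC replicates 2 and 3 in the median member and at -0.01 in the median gene. Control replicate 1 was the lowest of the 6 libraries in 31 of 38 members, against 58.6% of all genes tested, and in 15 of the 15 GTPases. The log2 fold change was lower without Control replicate 1 in 31 of 38 members and lower without DOPAC replicate 1 in 37 of 38. Without Control replicate 1 it was higher in the other 7 members, Bst2, Ifi27l2a, Zbp1, Isg15, Nmi, Ifi35 and Slfn2. These counts largely restate the ranks above, and the same shares over all genes were not computed. Without Control replicate 1 the log2 fold change was positive in 27 of 38 members (median 0.09), and 47.3% of all genes were positive in that fit. Without DOPAC replicate 1 it was positive in 31 of 38 (median 0.17), against 60.8% of all genes. With both left out, which was added once the data had been seen, it was positive in 16 of 38 members with a median of -0.03, against 45.4% of all genes tested. These libraries were the highest and the lowest in most members, so lower fold changes were fixed in advance. The values without both, here and below, are a description and no test. That fit had 8 of 23 type I targets and 8 of 15 GTPases positive.

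The counts at an unadjusted p under 0.05 and of groups that did not overlap also moved with the libraries used. Without Control replicate 1 there were 2 higher members at an unadjusted p under 0.05, Parp9 and Gbp7 (5.57% of all genes), and 0 lower (8.89%), and 5 members were higher (15.3%) and 3 lower (21.5%) with no overlap. At an adjusted p under 0.05 that fit called 0 members, with 0.0184% of all genes lower. Without both libraries numbered 1, Gbp7 alone was higher at an unadjusted p under 0.05 (5.82%) and 0 members were lower (10.6%), and 5 were higher (21.8%) and 7 lower (29.6%) with no overlap. At an adjusted p under 0.05 that fit too called 0 members, with 0.0184% of all genes lower. The count of higher members at an unadjusted p under 0.05 was 0 without DOPAC replicate 1 (1.13%), 2 (1.56%) or 3 (1.32%), and 5 without Control replicate 2 (3.58%). Higher members with no overlap numbered 4 without DOPAC replicate 1 (10.5% of members against 18.3% of all genes) and 5 without DOPAC replicate 2 (13.2% against 15.5%). They numbered 13 without DOPAC replicate 3 (34.2% against 15.3%), 14 without Control replicate 2 (36.8% against 18.7%) and 6 without Control replicate 3 (15.8% against 19.9%).

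**Figure D2:**
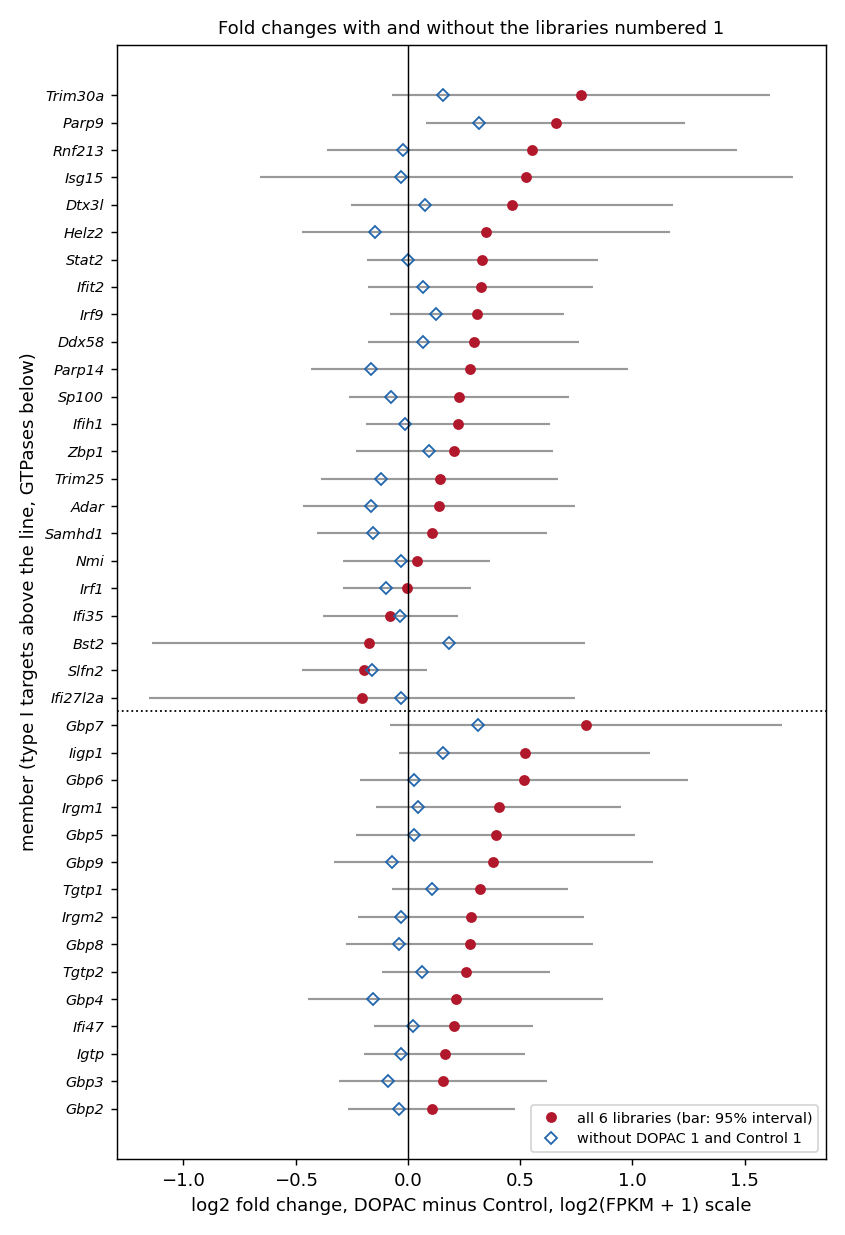
Filled points give each tested member's log2 fold change, DOPAC minus Control, over all 6 libraries with its 95% interval from limma, and open diamonds give the value with DOPAC replicate 1 and Control replicate 1 left out. The filled points are positive in 33 of 38 members and the diamonds in 16, with Parp9 and Gbp7 the farthest to the right among the diamonds, at 0.32 and 0.31. The libraries left out were the highest and the lowest in most members, so a shift of the diamonds to the left was fixed in advance.

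The ligand of the gamma pathway had higher values in every DOPAC library. Ifng, the gene of interferon gamma, measured 188, 98.8 and 132 FPKM in DOPAC replicates 1, 2 and 3 and 78.6, 80.1 and 82.9 FPKM in Control. The groups did not overlap and DOPAC replicate 1 was the highest. DOPAC minus Control came to 0.74 on the log2 scale (95% interval 0.19 to 1.29; limma unadjusted p = 0.016, adjusted p = 0.801), or 0.48 without both libraries numbered 1. Of its 31-base words 22.6% also occur in the overlapping gene model Gm49751. Of the interferon pathway genes outside the members 15 of 17 had a row (Ifnb1 and Ifna4 did not), and 0 passed the test over all genes. The log2 fold change was positive in 11 of the 15 (median 0.19), against 62.1% of all genes tested (median 0.07). Without both libraries numbered 1 it was positive in 5 of 15 (median -0.06), against 45.4% of all genes tested (median -0.02).

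Among the receptors, Ifngr1, the ligand-binding chain for interferon gamma, measured 26.9, 23.1 and 19.1 FPKM with DOPAC and 13.8, 19.2 and 17.8 FPKM in Control. DOPAC replicate 3 lay just below Control replicate 2, so the groups overlapped, and the log2 fold change was 0.42 (95% interval -0.02 to 0.86), or 0.18 without both libraries numbered 1. The partner chain Ifngr2 was near 1 FPKM throughout, at 1.47, 1.12 and 0.999 FPKM with DOPAC and 1.12, 0.943 and 0.668 FPKM in Control. In the type I receptor, Ifnar1 measured 15.8, 12.5 and 13.2 FPKM with DOPAC and 7.51, 15.5 and 13.0 FPKM in Control. Ifnar2 measured 10.5, 7.76 and 7.95 FPKM with DOPAC and 7.02, 9.27 and 9.19 FPKM in Control. The groups overlapped in all 3 of these chains, and the Ifnar1 and Ifnar2 log2 fold changes, 0.24 and 0.04, turned negative without Control replicate 1 (-0.04 and -0.08).

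Downstream of the receptors, Socs1, a feedback inhibitor of both receptors, measured 7.19, 0.736 and 1.18 FPKM with DOPAC and 7.05, 1.80 and 1.39 FPKM in Control. It was high in the library numbered 1 of each group, and its log2 fold change of -0.27 had a 95% interval of -1.91 to 1.38. Leaving out Control replicate 1 gave 0.28, and leaving out DOPAC replicate 1 gave -0.96. Ptpn2, a phosphatase that acts on JAK kinases, measured 27.5 to 30.3 FPKM with DOPAC and 22.0 to 26.9 FPKM in Control. The groups did not overlap, and the log2 fold change was 0.24 (95% interval -0.06 to 0.55, limma unadjusted p = 0.104, adjusted p = 0.801). Without both libraries numbered 1 it was 0.14. Of the pathway genes 2 of 15 (13.3%), Ifng and Ptpn2, were higher with no overlap, against 12.4% of all genes tested.

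Of the 3 transcription factors among the members, Irf1 had a log2 fold change near 0, and Stat2 and Irf9 had positive values that did not pass the test. Irf1, which both interferons induce and which binds ISRE itself, measured 28.3, 25.8 and 25.2 FPKM with DOPAC and 24.8, 26.8 and 27.9 FPKM in Control. The libraries of the groups were interleaved, and the log2 fold change of -0.01 had a 95% interval of -0.29 to 0.28. Stat2, a subunit of the type I complex, measured 4.85, 3.48 and 3.11 FPKM with DOPAC and 1.92, 3.25 and 3.34 FPKM in Control. Its log2 fold change was 0.33 (95% interval -0.18 to 0.85), with DOPAC replicate 1 above and Control replicate 1 below the other 4 libraries, and -0.0015 without both. Irf9, the DNA-binding part of the same complex, measured 6.32, 5.10 and 4.43 FPKM with DOPAC and 3.60, 4.67 and 3.90 FPKM in Control. The groups overlapped by DOPAC replicate 3, and the log2 fold change was 0.31 (95% interval -0.08 to 0.70), or 0.13 without both libraries numbered 1.

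The 2 lowest-expressed sensors of foreign RNA, Ifih1 (MDA5) and Ddx58 (RIG-I), lay between 0.741 and 1.92 FPKM in all 6 libraries, and the nucleic acid sensor Zbp1 between 4.90 and 8.62 FPKM. Each was highest in DOPAC replicate 1. Their log2 fold changes were 0.22, 0.29 and 0.21, and -0.01, 0.07 and 0.10 without both libraries numbered 1.

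Isg15, a ubiquitin-like protein that is joined to other proteins in interferon-treated cells, was the member with the widest spread between DOPAC libraries relative to their mean. It measured 5.31, 1.06 and 0.755 FPKM with DOPAC and 1.01, 1.65 and 0.432 FPKM in Control. DOPAC replicate 1 held 5.84 times the mean of the other DOPAC libraries, which themselves lay within the range of Control, and the log2 fold change of 0.53 (95% interval -0.66 to 1.72) became -0.05 without DOPAC replicate 1. Isg15 has 756 bp of exons, and 13.1% of its 31-base words occur in other genes.

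Parp9 was the 1 member with an unadjusted p under 0.05. It makes, with its partner ligase Dtx3l, a complex that joins ADP-ribose to ubiquitin. Parp9 measured 21.9, 17.6 and 17.3 FPKM with DOPAC and 8.015, 15.8 and 12.1 FPKM in Control. All DOPAC libraries lay above all Control libraries, and the log2 fold change was 0.66 (95% interval 0.08 to 1.23; limma unadjusted p = 0.031, adjusted p = 0.801). It was 0.42 without Control replicate 1, 0.55 without DOPAC replicate 1 and 0.32 without both. Dtx3l lies head to head with Parp9 on chromosome 16 (35926511 to 35939151, with Parp9 at 35938470 to 35972605, GENCODE M21 on GRCm38), and 7.52% of its 31-base words also occur in Parp9. Dtx3l measured 21.5, 19.8 and 19.9 FPKM with DOPAC and 8.53, 21.1 and 16.7 FPKM in Control, with a log2 fold change of 0.46 (95% interval -0.25 to 1.18) that was 0.11 without Control replicate 1. Of the other ADP-ribosylation and ubiquitin members, Parp14 and the giant ligase Rnf213 had 0.28 and 0.55 over all libraries and -0.16 and -0.02 without both libraries numbered 1.

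Trim30a, a ubiquitin ligase family member induced by interferon in mice, measured 23.1, 11.6 and 11.9 FPKM with DOPAC and 5.01, 10.9 and 10.1 FPKM in Control. The groups did not overlap, with DOPAC replicate 1 far above and Control replicate 1 far below the other 4 libraries, which lay between 10.1 and 11.9 FPKM. The log2 fold change of 0.77 (95% interval -0.07 to 1.61) was 0.15 without both. Trim25, the ligase that activates RIG-I, measured 17.0 to 17.7 FPKM with DOPAC and 10.8 to 19.6 FPKM in Control, the low value being that of Control replicate 1.

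**Figure D3:**
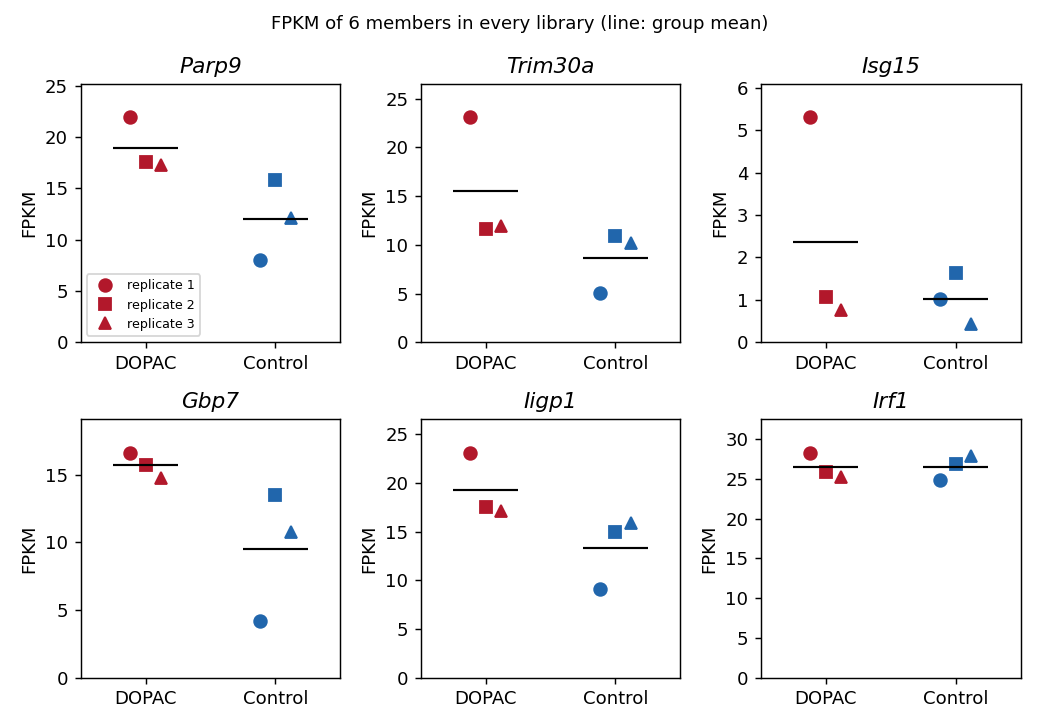
FPKM of 6 members in every library, DOPAC left of Control in each panel, with a symbol per replicate number and a line at the group mean. DOPAC replicate 1 (circle) is the highest point in each panel, and in Isg15 it stands alone at 5.31 FPKM while the other 5 libraries lie between 0.432 and 1.65 FPKM.

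The antiviral effectors held 3 of the 5 members with a negative log2 fold change. Slfn2, a Schlafen protein needed for T cell quiescence and survival in mice, measured 101, 102 and 101 FPKM with DOPAC and 120, 105 and 123 FPKM in Control. It was the 1 member with all DOPAC libraries below all Control libraries, with a log2 fold change of -0.19 (95% interval -0.47 to 0.09; limma unadjusted p = 0.144, adjusted p = 0.801) and -0.16 without both libraries numbered 1. Bst2 (tetherin), which holds budding virus at the cell surface, measured 35.9, 27.1 and 27.2 FPKM with DOPAC and 67.2, 22.0 and 25.8 FPKM in Control. Here Control replicate 1 was high instead of low, and the log2 fold change of -0.17 became 0.31 without it. Ifi27l2a measured 22.8, 15.8 and 11.5 FPKM with DOPAC and 33.9, 14.8 and 12.8 FPKM in Control, and its log2 fold change likewise changed sign, -0.20 with all libraries and 0.21 without Control replicate 1. Samhd1, which depletes nucleotides, and Adar, which edits double-stranded RNA, had means of 32.2 ± 2.33 and 12.8 ± 0.122 FPKM with DOPAC and 30.6 ± 8.45 and 12.1 ± 4.13 FPKM in Control (SD, n = 3 each). Ifi35 measured 22.1, 21.1 and 20.4 FPKM with DOPAC and 24.9, 20.6 and 22.0 FPKM in Control, with a log2 fold change of -0.08 (95% interval -0.38 to 0.22) that was -0.005 without Control replicate 1. Its binding partner Nmi lay between 10.7 and 13.7 FPKM with DOPAC and between 10.9 and 11.9 FPKM in Control. The remaining effectors Ifit2, Helz2 and Sp100 overlapped between the groups, with log2 fold changes of 0.32, 0.35 and 0.23. These were 0.12, -0.06 and 0.05 without Control replicate 1, and 0.07, -0.15 and -0.08 without both libraries numbered 1.

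The GTPases included the 2 most abundant members, Igtp and Gbp2, which averaged 157 and 148 FPKM over the 6 libraries. The type I target Slfn2 followed at 109 FPKM and the GTPase Ifi47 at 84.2 FPKM, and Gbp8 was the lowest of the family at 3.64 FPKM. Igtp measured 183, 161 and 152 FPKM with DOPAC and 125, 155 and 164 FPKM in Control, with a log2 fold change of 0.16 (95% interval -0.19 to 0.52). Gbp2 measured 153, 163 and 143 FPKM with DOPAC and 116, 161 and 153 FPKM in Control, with a log2 fold change of 0.11 (95% interval -0.27 to 0.48). Both overlapped between the groups, and without both libraries numbered 1 their values were -0.03 and -0.04.

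Of the guanylate-binding proteins, which coat and break microbe-containing vacuoles, Gbp7 had the largest log2 fold change of any member over all 6 libraries. It measured 16.6, 15.7 and 14.8 FPKM with DOPAC and 4.21, 13.5 and 10.8 FPKM in Control. The groups did not overlap, the DOPAC libraries lay close together, and the log2 fold change was 0.79 (95% interval -0.08 to 1.67; limma unadjusted p = 0.068, adjusted p = 0.801). It was 0.35 without Control replicate 1, 0.76 without DOPAC replicate 1 and 0.31 without both. Of the 31-base words of Gbp7 14.7% occur in other genes, chiefly Gm43802 (10.8%). Gbp6 measured 16.1, 12.04 and 10.8 FPKM with DOPAC and 5.07, 11.5 and 10.8 FPKM in Control, a log2 fold change of 0.52 (95% interval -0.21 to 1.25) that was 0.03 without both libraries numbered 1. Its reads are uncertain, since 74.3% of its 31-base words occur in other genes, chiefly Gm43302 and Gbp10. Gbp3, Gbp4, Gbp5, Gbp8 and Gbp9 overlapped between the groups, with log2 fold changes of 0.16 to 0.39, and between -0.16 and 0.03 without both libraries numbered 1. The part of their 31-base words that occurs in other genes ran from 3.1% (Gbp5) to 31.1% (Gbp8).

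Of the immunity-related GTPases, Iigp1 (Irga6), an effector loaded onto vacuoles in mice, measured 23.1, 17.5 and 17.1 FPKM with DOPAC and 9.14, 14.98 and 15.9 FPKM in Control. The groups did not overlap, and the log2 fold change of 0.52 (95% interval -0.04 to 1.08; limma unadjusted p = 0.063, adjusted p = 0.801) was 0.16 without both libraries numbered 1. The near-identical Tgtp1 and Tgtp2, whose promoter windows above differ little, shared 84.4% and 90.5% of their 31-base words with other genes, mostly with each other, so the split of reads between them is uncertain. Tgtp1 measured 61.9, 50.2 and 46.7 FPKM with DOPAC and 36.3, 42.0 and 48.0 FPKM in Control, a log2 fold change of 0.32 (95% interval -0.07 to 0.71). It was 0.21 without DOPAC replicate 1 and 0.11 without both libraries numbered 1. Tgtp2 had 0.26 (95% interval -0.11 to 0.63), or 0.14 without DOPAC replicate 1 and 0.06 without both. Irgm1, which regulates the effector GTPases, measured 22.0, 14.4 and 13.1 FPKM with DOPAC and 9.54, 13.4 and 13.2 FPKM in Control. DOPAC replicate 1 was high and Control replicate 1 low, the other 4 libraries lay between 13.1 and 14.4 FPKM, and the log2 fold change of 0.40 (95% interval -0.14 to 0.95) was 0.04 without both libraries numbered 1. The gene model of Irgm2 overlaps that of Igtp on chromosome 11. Irgm2 shares 9.16% of its 31-base words with Igtp, and 15.9% of those of Igtp occur in Irgm2. Irgm2 had a log2 fold change of 0.28, or 0.09 without Control replicate 1 and -0.03 without both libraries numbered 1. Ifi47 had 0.20, or 0.08 and 0.02 in those fits.

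The deviation of Control replicate 1 ran with the length of the members' transcripts. Across the 38 members log2 exon length and the difference between Control replicate 1 and the mean of the other 5 libraries had a Pearson's r of -0.80 (Spearman's rho -0.70), and across 10802 tested genes with a known length r was -0.52. These points share the same libraries and are given as a description. The 5 members with up to 2000 bp of exons had a median log2 fold change of -0.17, the 14 members with more than 2000 and up to 5000 bp one of 0.23 and the 19 longer members one of 0.33. Without Control replicate 1 these medians were 0.21, 0.09 and 0.09. With a smooth length trend removed from each library 31 of 38 members were positive with a median of 0.19, against 48% of all genes tested with a median of -0.01, and 0 passed the test. In that fit 15 of 15 GTPases and 16 of 23 type I targets were positive, and Parp9, Gbp7 and Iigp1 were higher at an unadjusted p under 0.05 (5.69% of all genes). With no overlap between the groups, 7 of 38 members were higher (18.4%) and 2 lower, against 1388 and 1197 of the 10887 genes tested. Members are listed with lengths from 463 bp (Ifi27l2a) to 16888 bp (Rnf213), and the part of length in their fold changes was not tested beyond these values.

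**Figure D4:**
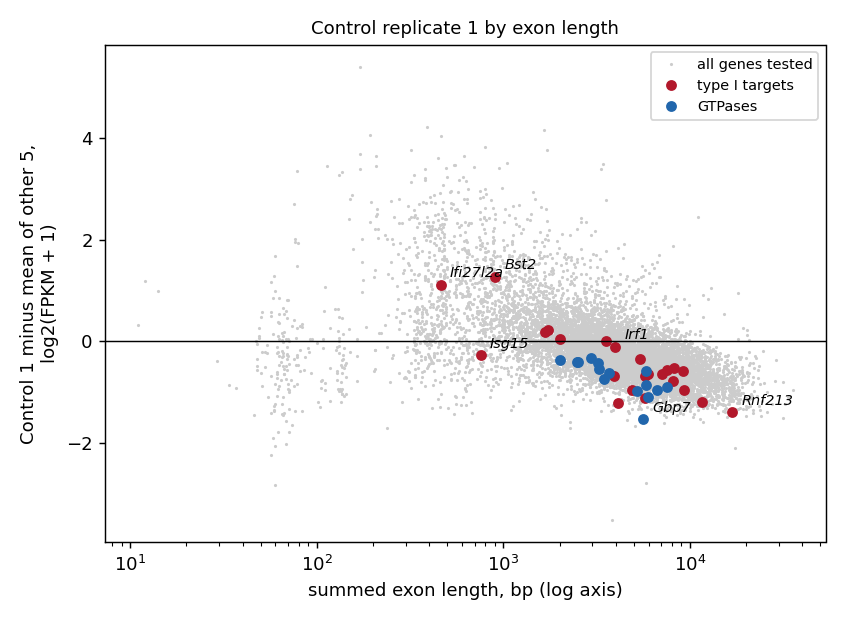
Each point is a gene, with its summed exon length on a log axis against the difference of Control replicate 1 from the mean of the other 5 libraries in log2(FPKM + 1). Grey points are all genes tested, red points type I targets and blue points GTPases. Bst2 and Ifi27l2a, with 903 and 463 bp, lie above 0, and the 15 GTPases lie below it.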

How the data were processed

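The authors deposited FPKM per gene for 6 libraries, per the file headers; all 6 per-sample columns were used. Per the labels' protocols, full-length cDNA was made with SMART-Seq HT and libraries with Nextera XT, which do not mark strand. The build was mm10 and the tools were HISAT2 2.2.1 and cutadapt 1.9, per the submitters' processing notes; sources used here do not give the estimator or annotation. The authors' log2 fold change, deposited beside FPKM, matched DOPAC minus Control in mean log2(FPKM + 1) for all 11175 genes, to a tolerance of 1e-06. Of the p-values the authors deposited, the adjusted ones were under 0.05 in 0 genes.

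From these values log2(FPKM + 1) was fitted with limma 3.58.1 in R 4.3.3 (moderated test with a mean-variance trend, two-sided, Benjamini-Hochberg over the 10887 genes with a mean of at least 1 FPKM, threshold 0.05, 95% intervals), which understates changes of low genes. The fit was tested on simulated data. Depth is unknown, so no counting interval is given. Positions, exon lengths and 31-base words shared between transcripts came from GENCODE M21, which matched 39 of 39 members by identifier; promoter sequences came from RefSeq. Python 3.11.15 with matplotlib 3.10.9 made the figures.

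The members, lists and tests were chosen with earlier results of these data known. Members described with every library's value were, in each list, the 5 lowest p-values among positive and among negative fold changes, 10 fixed members (3 of them with no row) and 6 fixed pathway genes with any other under an unadjusted p of 0.05; others are given by range. A further pathway gene is not reported here. Same-numbered libraries of the groups deviated together (r = 0.34, 0.16 and 0.28 over genes, each above 0.1). However, DOPAC replicate 2 was closer to Control replicate 3 (0.19), and Control replicate 2 closer to DOPAC replicate 3 (0.24), than to each other. Deviations from a group mean cancel out within the group, and Control replicate 1 held 50.6% of the squared deviation. The r values are therefore not separate signs of pairing. No label ties same-numbered libraries to 1 animal or day. The fits behind the values above had no pairing term, and the replicate number entered as a block in alternative fits only. Alternatives were other pseudocounts, filters and scalings, library weights, a length correction, the replicate block, and leaving out each library.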

Additional observations from a re-analysis of the deposited data

How the results depend on the processing

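In every alternative run, 0 members and 0 pathway genes passed the test. The count over all genes was 0 with all libraries and 2 with library weights, without Control replicate 1 (0 to 2 over the libraries left out in turn) and without both libraries numbered 1. The replicate block cannot move a fold change, since each block holds 1 library of each group. It left the count of genes called at 0 (lowest limma adjusted p 0.439), and the pairing changed no call. With library weights, whose estimation stopped before its convergence tolerance was reached, positive values were found in 10 type I targets and 9 GTPases. With both libraries numbered 1 left out the counts were 8 and 8, and the type I median was -0.030. Among described genes the log2 fold change changed sign as follows. Ifnar2 had -0.022 with quantile normalization, -0.022 with equal medians, -0.017 with the length trend removed and -0.017 with that and the replicate block, -0.16 with library weights, -0.21 without both libraries numbered 1, and -0.091 to 0.11 over the libraries left out in turn. With library weights Bst2 had 0.21, Isg15 -0.064, Gbp2 -0.026 and Ifnar1 -0.13. Without both libraries numbered 1 Bst2 had 0.18, Isg15 -0.032, Gbp2 -0.039, Igtp -0.029, Stat2 -0.0015 and Ifnar1 -0.13. Leaving out each library in turn gave -0.47 to 0.31 for Bst2, -0.46 to 0.21 for Ifi27l2a, -0.036 to 0.195 for Gbp2, -0.040 to 0.44 for Ifnar1, -0.053 to 0.032 for Irf1, -0.048 to 0.88 for Isg15 and -0.96 to 0.28 for Socs1. The cause of these changes was not tested beyond the libraries named. In 373 other values of described genes direction and side of the threshold were the same. Among them, those of the replicate block alone and of the other filters could not change direction. FPKM give no depth, so what low members such as Isg15, Ifih1 and Ddx58 could show is not known.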
